A study of Homo sapiens with 10 samples.

Results

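Replicate 1 was set against replicate 2 in 5 lines derived from HCT116, a long-established epithelial cell line from a human colorectal carcinoma, and each line served as its own pair. The titles alone chose the arrays: 5 of the 10 arrays in the series are titled as the first biological replicate and 5 as the second, so that all 10 arrays were used and each line gave 1 pair. The lines were ORC1B14 and ORC1BP32, labelled as ORC1 mutants, ORC2B2 and ORC2BP8, labelled as ORC2 mutants, and WT. All 10 samples were untreated cells kept under the same incubator conditions, and total RNA was labelled as biotinylated cRNA for Affymetrix arrays that read whole transcripts. The labels give neither the kind of mutation nor whether each mutant line is 1 clone. They also do not say whether a replicate number marks a separate culture, a separate RNA extraction or a separate hybridisation, so these sources of a difference cannot be told apart here, and the spread behind the p-values may be technical.

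The proteins encoded by ORC1 and ORC2 sit in the complex that marks replication origins (the origin recognition complex) and helps to load the MCM helicase ahead of S phase. In proliferating epithelial cells such as HCT116, MYC drives the genes of ribosome production and E2F factors drive the genes of S phase. MicroRNAs, secreted proteases of the kallikrein family and HOX regulators belong to other programs that such cells express.

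Levels are the deposited log2 values, and every difference below is replicate 1 minus replicate 2 on the log2 scale, averaged over the 5 lines, with its standard error from the paired limma fit. A gene was called when its Benjamini-Hochberg adjusted p over 10797 tested genes was below 0.05. The number of arrays limits the precision: the fit left 4 residual degrees of freedom. The 10 arrays had medians of 3.94 to 3.96 in replicate 1 and 3.87 to 3.89 in replicate 2 over all probe sets, while over the tested genes the medians were 6.24 to 6.29 in replicate 1 and 6.32 to 6.35 in replicate 2. The colon epithelium markers were present in both sets: EPCAM, an epithelial adhesion molecule, averaged 10.15 in replicate 1 and 10.06 in replicate 2, and KRT18, a simple epithelial keratin, averaged 10.92 in replicate 1 and 10.68 in replicate 2. Neither was called (EPCAM difference 0.10, adjusted p = 0.592; KRT18 difference 0.24, adjusted p = 0.256). Villin, encoded by VIL1, had array values of 4.27 in replicate 1 and 4.17 in replicate 2. The intestinal transcription factor CDX2 had 5.53 in replicate 1 and 5.51 in replicate 2. Values of different probe sets do not rank the amounts of these transcripts. Among markers of other cells, 1 of 13 fibroblast, 3 of 12 blood cell, 5 of 14 hepatocyte and kidney and 6 of 13 lung, breast and cervical genes were tested, and none was called. The mean level of the blood markers was 5.57 to 6.34 in replicate 1 and 5.87 to 6.11 in replicate 2, and the fibroblast marker THY1 lay between 4.17 and 4.82 in replicate 1 and between 4.16 and 4.82 in replicate 2. The hepatocyte and kidney markers averaged 4.64 to 4.89 in replicate 1 and 4.76 to 5.08 in replicate 2, and the lung, breast and cervical markers 4.11 to 4.38 in replicate 1 and 4.20 to 4.35 in replicate 2. ORC1 to ORC6 were not analysed here.

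Replicate number separated the arrays in every line. Of the tested genes, 599 (5.55%) were called, 177 higher in replicate 1 (1.64%) and 422 lower in replicate 1 (3.91%), and 2736 had an unadjusted p below 0.05. All 5 within-line differences had the same sign in 2497 genes (23.1%), 765 higher in replicate 1 (7.09%) and 1732 lower in replicate 1 (16%), and 587 of the called genes were among them. Most called differences were small: their median size was 0.54, and 8 genes were at least 2-fold higher and 5 at least 2-fold lower in replicate 1. The median difference over all tested genes was -0.05, with line medians between -0.07 and -0.03. Of the 10797 genes, 6217 had a negative and 4580 a positive difference, which is the background for the sign counts of gene lists below. With each array centred on its median, 383 genes were called, 327 of them shared with the fit above, and the split turned to 233 higher (2.16%) and 150 lower (1.39%) in replicate 1. The share of called genes that were higher in replicate 1 was then 60.8%, against 29.6% in the values as deposited and 38.4% after quantile normalization (165 higher, 1.53%, and 265 lower, 2.45%), so the direction of the majority depended on the scaling. It also depended on the probe sets: on all 29383 kept probe sets, named or not, 296 were called higher and 203 lower on the deposited scale, in a fit added after seeing the data. The count rested on particular pairs: 36 genes were called without WT, 21 without ORC1B14 and 18 without ORC2BP8, against 261 without ORC1BP32 and 296 without ORC2B2.

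The first 2 components of the 10797 genes placed the replicate number second. Component 1 held 26.9% of the variance and component 2 held 22.3%. On component 2 the replicate 1 arrays scored 23.14 in ORC1B14, 12.78 in ORC1BP32, 3.43 in ORC2B2, 6.30 in ORC2BP8 and 16.31 in WT. The replicate 2 arrays scored -9.75 in ORC1B14, -7.64 in ORC1BP32, -14.36 in ORC2B2, -23.87 in ORC2BP8 and -6.35 in WT, so the 2 sets did not overlap. For 7 of the 10 arrays the array with the highest correlation came from another line with the same replicate number. In the other 3 arrays, replicate 1 of ORC1BP32, ORC2B2 and WT, it was the replicate 2 array of the same line. The median gene had 49.7% of its raw sum of squares between lines, 13.2% between replicate numbers and 27.0% in the remainder. Line exceeded replicate number in 8418 genes. Line has 5 levels against 2 for replicate number, and more levels take a larger raw share by themselves. These shares therefore do not rank line above replicate number. In the called genes the medians were 25.3% between lines, 62.7% between replicate numbers and 9.89% in the remainder, which the call itself favours.

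**Figure D1:**
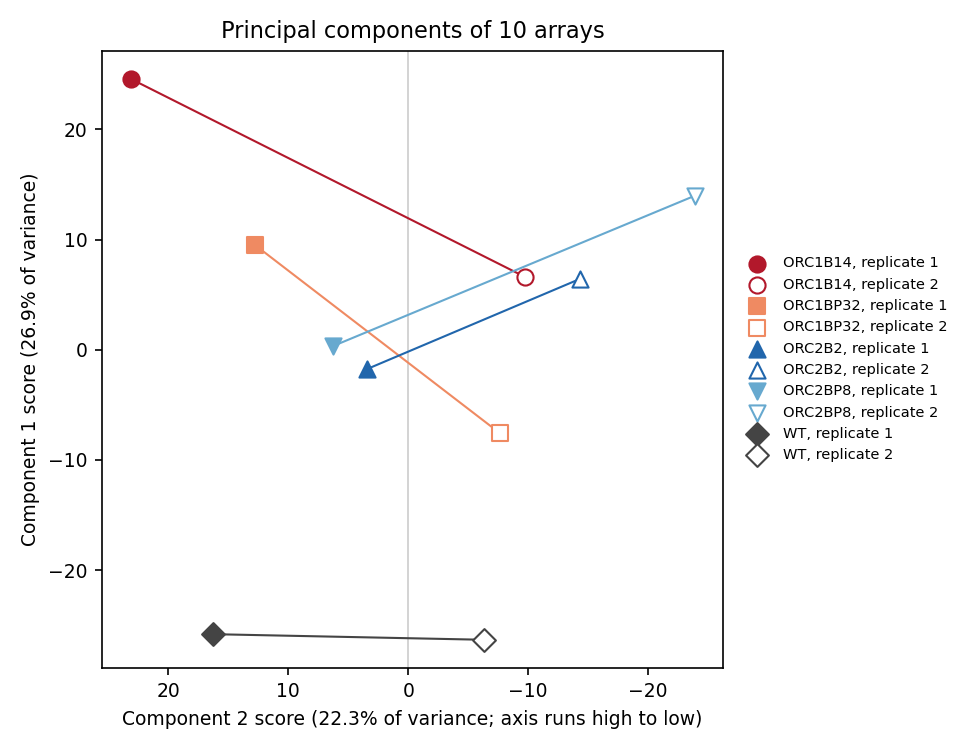
Scores of the 10 arrays on component 2 (x axis, drawn from high to low, 22.3% of the variance) and component 1 (y axis, 26.9%), with replicate 1 filled, replicate 2 open and the 2 arrays of a line joined. All 5 replicate 1 arrays lie on the positive side of component 2, from 3.43 to 23.14, and all 5 replicate 2 arrays on the negative side.

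Most microRNA genes had a positive difference, 329 of the 439 tested. MicroRNAs are short RNAs cut from hairpin precursors, and bases 2 to 8 of the mature form, the seed, pair with target transcripts. Of 439 tested microRNA genes, 54 were called higher in replicate 1 (12.3%, against 1.64% of all genes) and 8 lower, and their median difference was 0.19 against -0.05 over all genes. The filter on low values asked for 2 arrays at or above the array median, and 21 microRNA genes met it through replicate 1 arrays alone, where 7 calls lay, all higher. Another 5 met it through replicate 2 alone, with 1 call, lower. These counts leave out genes, such as MIR4747, with 1 array of the other replicate number at or above its median. Among the 376 microRNA genes whose mean over all 10 arrays reached the mean array median, 48 were called higher and 7 lower with a median of 0.19, against a median of -0.05 over the 10274 genes of all types that did so. Mature forms of 8 genes are printed here from RefSeq (GRCh38.p14), 5′ to 3′, with the seed in capitals. MIR539, MIR4747 and MIR4454 are shown as the genes highest above replicate 2, MIR3689F and MIR210 as genes whose call did not need any single pair, and MIR98, MIR25 and MIR15B for their seed families; MIR25 and MIR15B were lower in replicate 1:
hsa-miR-539-5p: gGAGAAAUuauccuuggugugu
hsa-miR-539-3p: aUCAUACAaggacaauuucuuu
hsa-miR-4747-5p: aGGGAAGGaggcuuggucuuag
hsa-miR-4747-3p: aAGGCCCGggcuuuccucccag
hsa-miR-4454: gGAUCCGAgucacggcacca
hsa-miR-3689f: uGUGAUAUcgugcuuccuggga
hsa-miR-210-3p: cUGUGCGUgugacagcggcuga
hsa-miR-25-3p: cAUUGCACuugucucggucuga
hsa-miR-98-5p: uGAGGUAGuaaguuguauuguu
hsa-miR-15b-5p: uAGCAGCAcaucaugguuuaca
The 2 forms of miR-539 lie on the plus strand at chr14:101047329-101047350 and chr14:101047369-101047390, and those of miR-4747 on the plus strand at chr19:4932687-4932708 and chr19:4932719-4932740. On the minus strand, miR-4454 lies at chr4:163093607-163093626, miR-3689f at chr9:134850783-134850804, miR-210-3p at chr11:568112-568133, miR-25-3p at chr7:100093571-100093592 and miR-98-5p at chrX:53556299-53556320, and miR-15b-5p lies on the plus strand at chr3:160404607-160404628. The platform annotation names a probe set by the microRNA gene; whether it reads the hairpin, the primary transcript or the host RNA is not given in the sources used here.

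MIR539, a gene of the imprinted microRNA cluster on chromosome 14, stood highest above replicate 2 by its difference. Its level in replicate 1 was 5.26 in ORC1B14, 4.92 in ORC1BP32, 5.34 in ORC2B2, 5.66 in ORC2BP8 and 5.11 in WT, and in replicate 2 it was 2.92, 3.03, 3.81, 3.44 and 2.51 in the same order of lines. Every replicate 1 array was above every replicate 2 array. The 5 replicate 2 arrays were below the median of their array, so the gene met the filter through replicate 1 alone, and its difference is given as a description with no p. The means were 5.26 ± 0.28 in replicate 1 and 3.14 ± 0.50 in replicate 2 (SD, n = 5 each), a difference of 2.12. MIR4747 had 5.56, 5.37, 4.74, 5.16 and 4.62 in replicate 1 of ORC1B14, ORC1BP32, ORC2B2, ORC2BP8 and WT, against 4.27, 3.62, 3.78, 2.85 and 3.31 in replicate 2 of the same lines. The groups did not overlap, and the difference was 1.53. The 4 arrays below their median were all of replicate 2, so MIR4747 met the filter only with its replicate 1 arrays. Its difference is likewise given with no p. Of the 23 tested microRNA genes on chromosome 14, 16 were positive and 7 negative with a median of 0.12, and 18 were not called. Beside MIR539, MIR494 (0.77, adjusted p = 0.0221) and MIR127 (0.41, adjusted p = 0.0424) were called higher in replicate 1, and so was MIR668 (0.64), which also met the filter through replicate 1 alone. MIR412 was lower (difference -0.62, adjusted p = 0.0262).

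MIR3689F had 8.10, 7.28, 7.94, 7.63 and 7.62 in replicate 1 of ORC1B14, ORC1BP32, ORC2B2, ORC2BP8 and WT, against 6.97, 6.54, 7.02, 6.74 and 6.75 in replicate 2. These ranges did not overlap, and the difference was 0.91 (SE 0.10, adjusted p = 0.00488); near-identical family members could share its probes, so which copy gave the signal is uncertain. MIR4454 stood at 6.84, 6.69, 7.0, 6.67 and 6.54 in replicate 1 and at 5.47, 3.98, 6.32, 5.10 and 5.58 in replicate 2 of the lines in that order, a non-overlapping difference of 1.46 (SE 0.24, adjusted p = 0.0192). MIR548H2, from another family with many near-identical copies, had 5.80, 5.35, 6.01, 5.80 and 6.87 in replicate 1 and 4.75, 4.38, 5.04, 4.30 and 5.34 in replicate 2. Its ranges met almost edge to edge, with ORC1BP32 in replicate 1 just above WT in replicate 2, and its difference was 1.20 (SE 0.13, adjusted p = 0.00488). MIR1908 was higher in replicate 1 by 0.93 (SE 0.13, adjusted p = 0.0136), again without overlap. MIR210, a microRNA known to follow hypoxia, was named after its values were seen, because replicate number held 94.9% of its sum of squares. It had 7.19, 7.01, 7.16, 7.14 and 7.08 in replicate 1 and 6.20, 6.39, 6.18, 6.09 and 6.41 in replicate 2, a difference of 0.86 (SE 0.11, adjusted p = 0.00899). The 20 tested genes of the hypoxia and glycolysis list showed no call in either direction, with a median difference of -0.03; the largest single values were -0.38 for the hexokinase gene HK2 (adjusted p = 0.117) and 0.36 for the stress-response gene DDIT4 (adjusted p = 0.111).

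MIR25, a member of the microRNA cluster inside MCM7, went the other way. It had 5.27, 4.87, 5.21, 5.40 and 5.43 in replicate 1 and 6.06, 5.86, 6.01, 6.48 and 6.09 in replicate 2 of ORC1B14, ORC1BP32, ORC2B2, ORC2BP8 and WT, and the groups did not overlap (difference -0.86, SE 0.11, adjusted p = 0.00894). Its host MCM7, a helicase subunit, had a difference of -0.28 (adjusted p = 0.109). MIR106B, which also lies in MCM7, had the opposite sign (0.13, adjusted p = 0.597), so the drop was not shared by the whole cluster. MIR4482 (difference -0.98, adjusted p = 0.0226), MIR194-2 (-0.85, adjusted p = 0.0276) and MIR15B (-0.54, adjusted p = 0.0422) were also lower in replicate 1. MIR16-2, which lies in SMC4 as MIR15B does, had 0.25 (adjusted p = 0.441), and SMC4 had -0.03 (adjusted p = 0.893). MIR17HG, the host transcript of the cluster that holds miR-17 and named after its values were seen, was lower in replicate 1 (difference -0.68, SE 0.13, adjusted p = 0.0265).

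The called microRNA genes were set against their hosts, seeds and hairpins. Of 128 microRNA genes that lie on the same strand inside a tested host gene, 19 were called; the host had the same sign in 11 of these 19 pairs and was itself called in 0. Across the 128 pairs the correlation of the microRNA's difference with that of its host was 0.09, as a description over genes that share arrays. MIR4747 lies in UHRF1, an epigenetic regulator whose difference was -0.00 (adjusted p = 0.991), and MIR1908 lies in FADS1, a fatty acid desaturase with 0.13 (adjusted p = 0.475). The median difference was 0.27 for the microRNA genes in tested hosts, -0.04 for those hosts and 0.17 for the 236 with a RefSeq hairpin and no tested host. Among the 58 of 62 called microRNA genes with a mature entry, no seed was shared by 2 or more. In the let-7 family, with seed GAGGUAG in the miR-98-5p sequence above, 7 genes ranged from -0.26 to 0.69 and MIR98 alone was called. The 3 genes with the miR-25 seed AUUGCAC ranged from -0.86 to 0.41, the 5 with the miR-15 seed AGCAGCA from -0.54 to 0.26, and the 3 with the miR-3689 seed GUGAUAU from 0.19 to 0.91. Over the 364 microRNA genes with a RefSeq hairpin, the rank correlation of the difference was 0.02 with hairpin GC content and 0.03 with hairpin length, and with mean level it was 0.16, all as descriptions. The median GC content was 58.2% in the 41 hairpins of genes called higher, 48.6% in the 7 of genes called lower and 56.6% in all 364.

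The microRNA shift was present at every level. Below a mean log2 level of 4 the median difference was 0.18 for 79 microRNA genes and 0.05 for 482 protein-coding genes. Between 6 and 7 it was 0.38 for 56 microRNA genes and -0.10 for 1923 protein-coding genes, and from 7 upward 0.36 for 34 microRNA genes and -0.12 for 3788 protein-coding genes. Of all genes tested, 1.64% were called higher and 3.91% lower. Over all levels the 9402 protein-coding genes had 99 called higher (1.05%), 399 called lower (4.24%) and a median of -0.06. The 656 long non-coding RNA genes had 11 called higher (1.68%) and 9 called lower (1.37%) with a median of 0.01. The 258 transcribed pseudogenes had 10 called higher (3.88%) and 2 called lower (0.775%) with a median of 0.07. With each array centred on its median, 62 microRNA genes were called higher and 6 lower, and after quantile normalization 47 higher and 8 lower, so most calls were higher in replicate 1 under both scalings. The median of the protein-coding genes became 0.01 with centring, where 134 were called higher and 138 lower. Without 1 pair the called microRNA genes numbered 7 (without ORC1B14), 8 (without ORC2BP8), 11 (without WT), 38 (without ORC2B2) and 47 (without ORC1BP32).

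**Figure D2:**
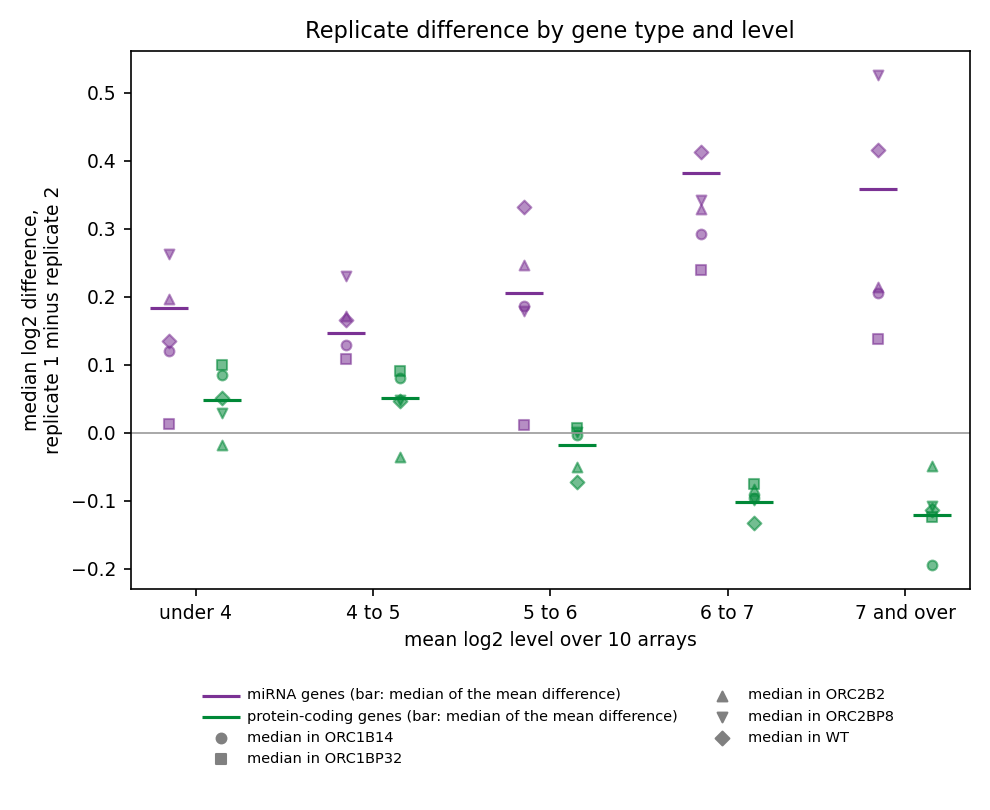
Median difference, replicate 1 minus replicate 2 (y axis, log2), of microRNA and protein-coding genes in bins of mean log2 level (x axis), with a point for each line's own median. MicroRNA medians lie between 0.15 and 0.38 in every bin, and protein-coding medians go from 0.05 in the lowest bin to -0.12 in the highest.

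By the mean difference, the 15 highest and 15 lowest called genes with 1 sign in all 5 lines included 10 microRNA genes, 7 higher and 3 lower in replicate 1. For MIR539, KRTAP20-1 and MIR4712, which met the filter through replicate 1 alone, and for MIR4747, no p is given as support. The standard errors of the others lay between 0.10 and 0.24 and their limma adjusted p-values between 0.000339 and 0.0481. The 2 groups did not overlap in 16 of the 30, as in 633 of all tested genes (5.86%). Without 1 of the lines, 21 of the 30 missed the threshold at least once, 20 of them without ORC1B14, 19 without ORC2BP8 and 16 without WT. All 30 have 1 sign in every line because they were chosen so. Across all tested genes, 13 were called with all pairs and again without each pair: MIR539, MIR4747, MIR548H2, UCA1, C20orf144, MIR3689F, DEDD2, MIR210, CHPF, DDR1, MIR25, CDNF and ANXA10. MIR539 is in this count although it met the filter through replicate 1 alone, and MIR4747 although 4 of its replicate 2 arrays were below their median. Every other called gene named here missed the threshold without at least 1 of the pairs.

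**Figure D3:**
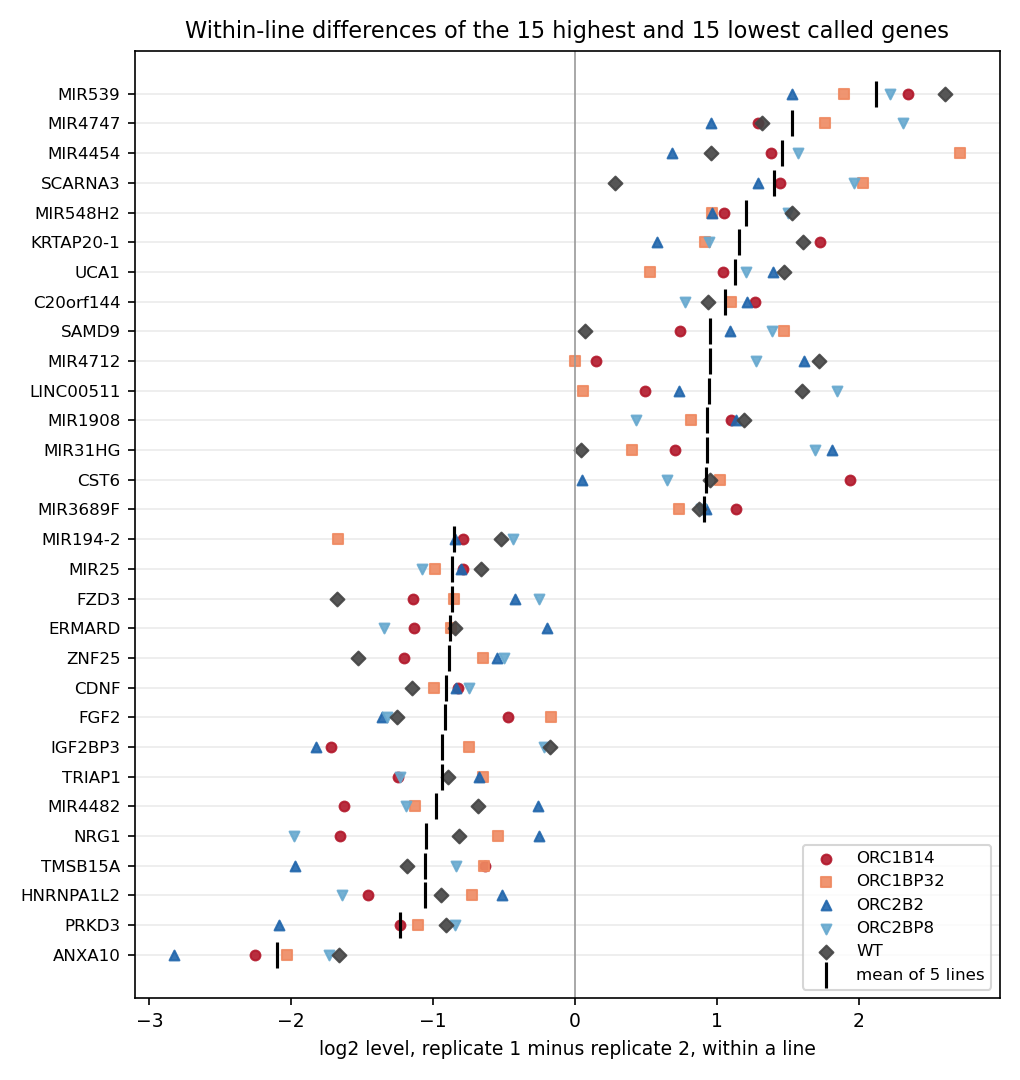
Within-line differences, replicate 1 minus replicate 2 (x axis, log2), of the 15 highest and 15 lowest called genes (rows), with a point for each line and a black tick at the mean of the 5 lines. The means run from 2.12 in MIR539 to -2.10 in ANXA10, and no gene has points on both sides of 0, as the choice of genes required.

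ANXA10, a calcium-dependent phospholipid-binding annexin expressed in gastric epithelium, showed the largest drop. Its level in replicate 1 was 6.0 in ORC1B14, 4.49 in ORC1BP32, 6.58 in ORC2B2, 6.25 in ORC2BP8 and 5.67 in WT, and in replicate 2 it was 8.26, 6.52, 9.40, 7.98 and 7.34 in the same order of lines. ORC1BP32 was the lowest line in both sets and ORC2B2 the highest, so the groups overlapped although every pair moved down. The means were 5.80 ± 0.80 in replicate 1 and 7.90 ± 1.07 in replicate 2 (SD, n = 5 each), a difference of -2.10 (SE 0.16, adjusted p = 0.000339, limma). CDNF, which encodes a neurotrophic factor that resides in the endoplasmic reticulum, had 4.33, 4.61, 4.48, 4.88 and 4.74 in replicate 1 and 5.15, 5.60, 5.32, 5.63 and 5.89 in replicate 2. Its groups did not overlap, with a difference of -0.91 (SE 0.11, adjusted p = 0.00665).

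PRKD3, a protein kinase D, had 3.84, 5.18, 3.84, 5.89 and 5.48 in replicate 1 of ORC1B14, ORC1BP32, ORC2B2, ORC2BP8 and WT, against 5.08, 6.28, 5.92, 6.74 and 6.39 in replicate 2. Its groups overlapped, and its call (difference -1.24, SE 0.17, adjusted p = 0.0127) was lost without ORC1B14. TRIAP1, a p53-regulated gene that protects cells from apoptosis, had 5.97, 6.55, 6.24, 6.40 and 6.13 in replicate 1 against 7.22, 7.20, 6.92, 7.63 and 7.02 in replicate 2, with no overlap (difference -0.94, SE 0.13, adjusted p = 0.0109). It missed the threshold only without ORC2BP8, at an adjusted p of 0.051. Growth factor genes were among the lowest: NRG1, a ligand of the ERBB receptors, had -1.05 (adjusted p = 0.035) and FGF2, a fibroblast growth factor, -0.92 (adjusted p = 0.0276). The WNT receptor gene FZD3 had -0.87 (adjusted p = 0.0331), the actin-sequestering TMSB15A -1.05 (adjusted p = 0.0217), the zinc finger gene ZNF25 -0.89 (adjusted p = 0.0236) and ERMARD -0.88 (adjusted p = 0.0217). HNRNPA1L2, a near copy of the splicing factor gene HNRNPA1, had -1.06 (adjusted p = 0.0172), and reads of its parent's RNA by the same probes cannot be separated here. IGF2BP3, an oncofetal RNA-binding protein gene, averaged -0.94 (SE 0.24, adjusted p = 0.0469), and its drop was uneven: 5.56 in replicate 1 and 7.28 in replicate 2 of ORC1B14, but 8.03 in replicate 1 and 8.21 in replicate 2 of WT.

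UCA1, known from urothelial and colorectal cancers, had the largest difference among the called long non-coding RNA genes and was higher in replicate 1. It had 10.79, 10.55, 9.36, 9.97 and 10.66 in replicate 1 of ORC1B14, ORC1BP32, ORC2B2, ORC2BP8 and WT, against 9.75, 10.03, 7.97, 8.77 and 9.19 in replicate 2. The groups overlapped, with ORC2B2 the lowest line in both sets, while every pair was higher in replicate 1 (difference 1.13, SE 0.13, adjusted p = 0.00488). MIR31HG, the host transcript of miR-31, was higher by 0.93 (SE 0.24, adjusted p = 0.0481), with 6.91 in replicate 1 and 5.11 in replicate 2 of ORC2B2 but 6.54 in replicate 1 and 6.50 in replicate 2 of WT. LINC00511, another long non-coding RNA, had 0.95 (adjusted p = 0.0424). C20orf144, a little-studied gene, had 6.81, 6.34, 6.63, 6.14 and 5.92 in replicate 1 and 5.55, 5.24, 5.42, 5.37 and 4.98 in replicate 2, with no overlap (difference 1.06, SE 0.11, adjusted p = 0.00488).

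SCARNA3, a guide RNA of Cajal bodies, had 8.08, 7.85, 7.21, 7.49 and 7.23 in replicate 1 and 6.63, 5.82, 5.92, 5.53 and 6.94 in replicate 2, with no overlap (difference 1.40, SE 0.21, adjusted p = 0.0164). Its family did not move together: of 22 tested SCARNA genes, SCARNA3 and SCARNA9 (0.69, adjusted p = 0.0414) were higher, SCARNA4 (-0.95, adjusted p = 0.0414), SCARNA15 (-0.48, adjusted p = 0.0499) and SCARNA21 (-0.63, adjusted p = 0.0419) were lower, and the median was -0.02. The SCARNA genes called higher were 9.09% of those tested, against 1.64% of all genes, and those called lower 13.6%, against 3.91%. With centring 3 were called higher and 0 lower. KRTAP20-1, a keratin-associated protein gene, had 1.15, and MIR4712 had 0.95. Both met the filter through replicate 1 alone, KRTAP20-1 on 5 arrays and MIR4712 on 2, so these values are descriptions with no p. CST6, a cysteine protease inhibitor, had 0.92 (adjusted p = 0.0376).

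Of the genes that kept their call without each pair, 3 more coding genes were named after their values were seen. DEDD2, a death-effector-domain protein gene, had 7.51, 7.55, 7.25, 7.37 and 6.69 in replicate 1 and 6.54, 6.61, 6.39, 6.52 and 5.96 in replicate 2 of ORC1B14, ORC1BP32, ORC2B2, ORC2BP8 and WT (difference 0.87, SE 0.10, adjusted p = 0.00488). DDR1, a collagen receptor tyrosine kinase, had 9.53, 9.46, 9.06, 9.29 and 9.20 in replicate 1 and 8.71, 8.74, 8.45, 8.35 and 8.43 in replicate 2 (difference 0.77, SE 0.09, adjusted p = 0.00536). CHPF, a chondroitin polymerising factor, had 8.79, 8.89, 8.32, 8.32 and 8.46 in replicate 1 and 7.63, 8.02, 7.66, 7.71 and 7.59 in replicate 2 (difference 0.83, SE 0.11, adjusted p = 0.00894). The groups did not overlap in any of the 3, and WT was the lowest line for DEDD2 in both sets.

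**Figure D4:**
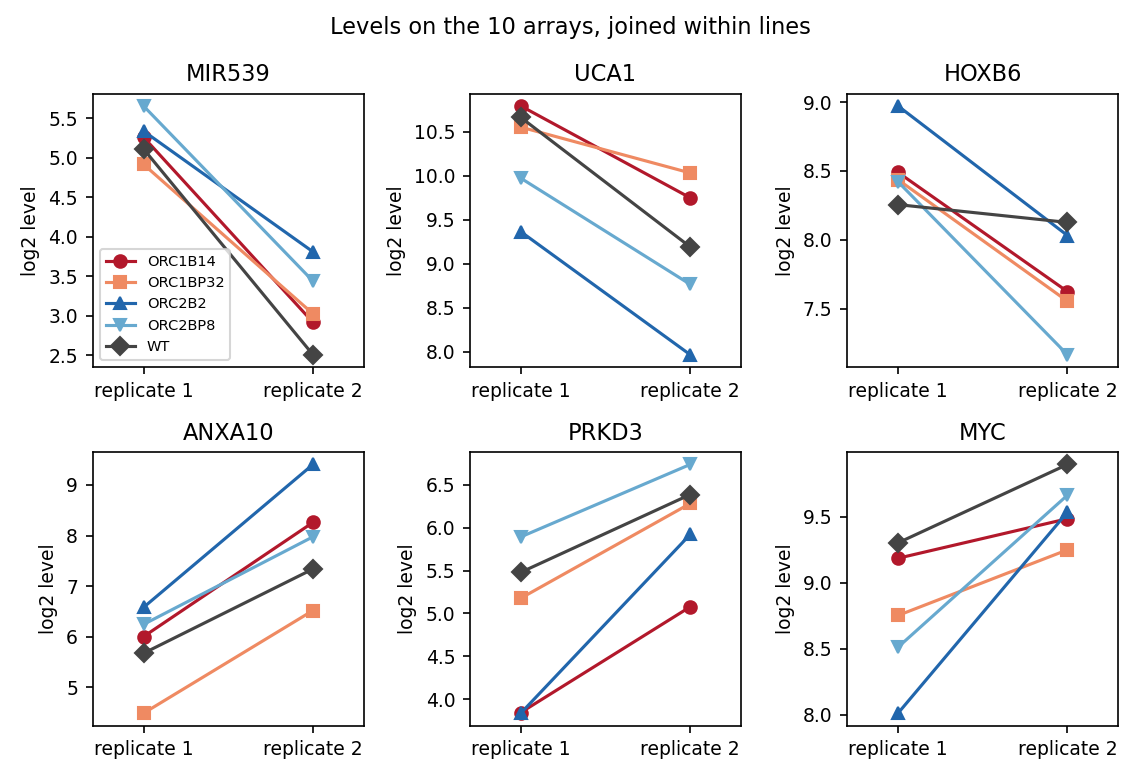
Log2 levels (y axis) of MIR539, UCA1, HOXB6, ANXA10, PRKD3 and MYC on the 10 arrays, replicate 1 at the left and replicate 2 at the right of each panel, with the 2 arrays of a line joined. Every line slopes the same way in each panel, and the 2 sets are free of overlap in MIR539 and HOXB6.

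MYC and 8 other genes of its target and ribosome production list were lower in replicate 1. MYC, the growth-promoting transcription factor, had 9.19, 8.75, 8.01, 8.51 and 9.30 in replicate 1 of ORC1B14, ORC1BP32, ORC2B2, ORC2BP8 and WT, against 9.49, 9.25, 9.54, 9.67 and 9.90 in replicate 2. ORC1B14 differed least and ORC2B2 most, the groups overlapped slightly, and the difference was -0.81 (SE 0.16, adjusted p = 0.0288). Of 26 tested members of the MYC target and ribosome biogenesis list, 9 were called lower (34.6%, against 3.91% of all genes) and 0 higher, 25 had a negative difference, and the median was -0.40 against -0.05. POLR3G, an RNA polymerase III subunit, had 9.47, 9.62, 9.11, 9.60 and 9.68 in replicate 1 against 10.19, 9.79, 10.15, 10.09 and 10.11 in replicate 2 (difference -0.57, SE 0.12, adjusted p = 0.0327), with no overlap. RRN3, the RNA polymerase I initiation factor, had 8.56, 9.29, 9.14, 8.96 and 8.98 in replicate 1 against 9.68, 9.56, 9.48, 9.54 and 9.50 in replicate 2 (difference -0.57, SE 0.12, adjusted p = 0.0353), again without overlap. ODC1, the first enzyme of polyamine synthesis, was lower by a small margin in ORC1BP32, with 10.63 in replicate 1 and 10.69 in replicate 2, and by a large one in ORC2BP8, with 10.42 in replicate 1 and 11.48 in replicate 2. The other 5 called members, which act in the nucleolus or in ribosomal RNA processing, were HEATR1 (-0.54), NOP16 (-0.55), NOLC1 (-0.53), LYAR (-0.52) and the helicase gene DDX21 (-0.48). With centring 5 of the 26 were called lower and the median was -0.33; without ORC1B14, without ORC2BP8 or without WT none was called.

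Families picked by symbol, after the values had been seen, gave the same direction for the machinery around ribosomes and RNA. Of 7 RNA polymerase I and III subunits, 4 were called lower (3 with centring) and all 7 were negative, with a median of -0.57. POLR3B, the second largest polymerase III subunit, had 7.35, 7.82, 8.01, 7.66 and 7.74 in replicate 1 and 8.23, 8.25, 8.27, 8.69 and 8.36 in replicate 2 (difference -0.64, SE 0.12, adjusted p = 0.0271), without overlap. Of 28 nucleolar processing factors 6 were called lower (21.4%, against 3.91% of all genes), among them RRP15 (-0.53) and NOC4L (-0.54), with a median of -0.26, but with centring 0 were called and after quantile normalization 1. Of 23 RNA modification enzymes 8 were called lower (34.8%), 4 with centring or quantile normalization, with a median of -0.31: MRM3, a methyltransferase of mitochondrial ribosomal RNA, had 7.52, 7.34, 7.48, 7.30 and 7.17 in replicate 1 and 8.04, 8.11, 8.19, 8.47 and 7.86 in replicate 2 (difference -0.77, SE 0.11, adjusted p = 0.0147). TRMT10C, a subunit of mitochondrial RNase P, had -0.69 (adjusted p = 0.0206), and PUS3, a pseudouridine synthase of tRNA, -0.73 (adjusted p = 0.032). Of 49 DEAD and DEAH box helicases 7 were called lower (14.3%), 2 with centring and 4 after quantile normalization, with DHX57 at -0.58 (adjusted p = 0.0221) and DDX28 at -0.67 (adjusted p = 0.0397), and a median of -0.29. No member of these 4 families was called higher, and POLR3G, NOP16 and DDX21 are counted both here and in the MYC list. Without ORC2BP8 or without WT none of the 4 families held a call, and without ORC1B14 1 did, among the RNA modification enzymes.

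Most tested genes of the mitochondrial ribosome, the mitochondrial translocases and oxidative phosphorylation had a negative difference, as did 6217 of all 10797 genes. Of 77 mitochondrial ribosomal protein genes, 71 were negative, 7 were called lower (9.09%, against 3.91% of all genes) and 0 higher, and the median was -0.24. With centring 2 were called lower, and after quantile normalization 4. MRPL1 had 5.90, 6.52, 6.58, 6.03 and 6.22 in replicate 1 and 7.04, 6.62, 7.12, 7.09 and 6.67 in replicate 2, a difference of -0.66 (SE 0.15, adjusted p = 0.0397). ORC1BP32 was the line with the smallest step, and the highest replicate 1 array lay just under the lowest replicate 2 array. Of 22 translocases of the mitochondrial membranes 3 were called lower, TIMM21 (-0.66), TIMM8A (-0.69) and TOMM34 (-0.61), with a median of -0.22; with centring 2 were. The nuclear-encoded oxidative phosphorylation list had 13 of 15 negative and a median of -0.21, but its only call was COX8A, a cytochrome oxidase subunit, which was higher in replicate 1 (0.36, adjusted p = 0.0322). Cytosolic ribosomal proteins had 40 of 45 negative with a median of -0.15. RPL34 (-0.53), RPS26 (-0.47) and RPL10A (-0.36) were called lower and RPS28 (0.33) higher, but with centring 1 was called lower and 3 higher. None of the mitochondrial or cytosolic ribosomal genes and translocases was called without ORC1B14, ORC2BP8 or WT.

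Several genes of DNA replication were lower in replicate 1. In the S phase and E2F list all 22 tested members were negative, 4 were called lower (18.2%, against 3.91% of all genes) and the median was -0.27. FEN1, the flap endonuclease of Okazaki fragment processing, had 7.36, 7.53, 7.80, 7.71 and 6.32 in replicate 1 of ORC1B14, ORC1BP32, ORC2B2, ORC2BP8 and WT, against 8.12, 7.88, 8.08, 8.28 and 7.35 in replicate 2. WT was the lowest line in both sets, and the groups overlapped (difference -0.60, SE 0.12, adjusted p = 0.0322). The other calls were the GINS subunit GINS4 (-0.49), the helicase cofactor CDC45 (-0.44) and the ribonucleotide reductase subunit RRM1 (-0.40). In the origin licensing and MCM helicase list 3 of 13 were called lower, 12 were negative and the median was -0.24. MCM6, a subunit of the helicase that the origin recognition complex loads, had 8.49, 8.67, 9.10, 8.41 and 8.0 in replicate 1 and 9.37, 9.09, 9.38, 9.28 and 8.61 in replicate 2 (difference -0.61, SE 0.11, adjusted p = 0.0242). CDC7, the kinase that fires origins, had 7.13, 7.82, 8.62, 8.26 and 7.52 in replicate 1 and 8.27, 8.53, 8.82, 8.64 and 8.25 in replicate 2 (difference -0.63, SE 0.13, adjusted p = 0.0331). MCM10, which joins the active helicase, had -0.51 (adjusted p = 0.0436, limma), but its ORC2B2 pair had the opposite sign, at 0.05. Every line was lower for MCM6 and CDC7, yet their groups overlapped. The 34 mitosis genes held 0 calls with a median of -0.10, and MAD2L1, a spindle checkpoint gene, had the largest value at -0.44 (adjusted p = 0.0556). With centring or quantile normalization 1 of the S phase genes and 2 of the licensing genes were called lower, and without ORC1B14, ORC2BP8 or WT none of either list was called. TERC, the RNA template of telomerase and named after its values were seen, had 8.60, 8.63, 7.83, 8.50 and 8.31 in replicate 1 and 8.97, 9.19, 8.87, 9.25 and 9.69 in replicate 2, without overlap (difference -0.82, SE 0.14, adjusted p = 0.0217).

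Promoters of the called coding genes were read for 8 short motifs chosen after the calls were known. The windows ran from 250 bases before to 50 bases after the RefSeq start of 7732 of the 9402 tested protein-coding genes, searched on both strands. For promoters looked at singly, only the 250 bases before the start were searched and printed. CACGTG, the E-box that MYC with its partner MAX and other factors can bind, was present in 15.5% of the 336 promoters of genes lower in replicate 1 and in 9.21% of the 76 of genes higher, against 9.79% of all 7732. CCGGAAG, an ETS-type motif, was in 25.9% of the lower, 14.5% of the higher and 18% of all. TATAAA was in 5.06% of the lower, 13.2% of the higher and 5.92% of all. Over all 27305 promoters of the table CACGTG was in 7.44%, CCGGAAG in 10.7% and TATAAA in 11.9%. The other 5 motifs were CCAAT (37.8% of the lower, 30.3% of the higher and 36.2% of all), GGGCGG (69.1%, 68.4% and 69.6% in that order), TGACGTCA (5.36%, 3.95% and 3.03%), the NRF1 motif (11.9%, 5.26% and 10.5%) and TGANTCA (2.68%, 6.58% and 4.68%). The promoters of FEN1 (GRCh38.p14, chr11:61792661-61792910, plus strand) and IGF2BP3 (chr7:23470492-23470741, minus strand), both lower in replicate 1, are shown because they hold CACGTG, in capitals; of 21 promoters of named genes looked at singly they were the only 2, and those of CDC45, RRM1, CDC7, MCM6, MCM10, RRN3 and ODC1, among others, held none:
FEN1: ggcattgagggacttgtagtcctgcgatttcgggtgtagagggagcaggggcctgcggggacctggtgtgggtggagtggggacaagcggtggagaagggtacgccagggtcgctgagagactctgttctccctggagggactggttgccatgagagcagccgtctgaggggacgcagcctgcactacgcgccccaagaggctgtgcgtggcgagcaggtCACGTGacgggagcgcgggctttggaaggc
IGF2BP3: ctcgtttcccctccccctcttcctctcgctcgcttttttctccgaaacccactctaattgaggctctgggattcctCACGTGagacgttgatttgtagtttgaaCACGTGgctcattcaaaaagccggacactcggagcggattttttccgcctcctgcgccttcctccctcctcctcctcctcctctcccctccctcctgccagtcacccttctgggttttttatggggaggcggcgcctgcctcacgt
A match is a description of these letters in the window and says nothing about binding.

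Several protease and patterning genes were higher in replicate 1. Of 14 kallikrein genes, secreted serine proteases, all 14 were positive and 3 were called higher (21.4%, against 1.64% of all genes) with a median of 0.13. KLK6 had 10.39, 9.67, 9.92, 9.45 and 8.39 in replicate 1 of ORC1B14, ORC1BP32, ORC2B2, ORC2BP8 and WT, against 9.68, 9.22, 9.21, 8.24 and 7.79 in replicate 2 (difference 0.74, SE 0.11, adjusted p = 0.0164). WT was lowest in both sets, and the groups overlapped. KLK5 (0.54) and KLK7 (0.47), neighbours of KLK6 on chromosome 19, were the other calls. Of 21 HOX genes, the regulators of body axis identity, 14 were positive and 7 negative, and the WT line median was -0.08. Called higher were 3 (14.3%, against 1.64% of all genes), all of the HOXB cluster: HOXB6 (0.81), HOXB5 (0.73) and HOXB3 (0.56). HOXB6 had 8.49, 8.44, 8.97, 8.42 and 8.26 in replicate 1 against 7.62, 7.55, 8.03, 7.17 and 8.13 in replicate 2, without overlap, and its WT pair differed least. Keratins were mixed, with KRT16 higher (0.56), KRT10 lower (-0.57) and 16 of 22 positive. Each of these calls was 4.55% of the 22, against 1.64% of all genes called higher and 3.91% called lower. In the epithelial junction and keratin list 18 of 25 were positive with a median of 0.10 and 0 calls; the tight junction gene TJP3 had 0.52 (adjusted p = 0.1) and KRT80 0.51 (adjusted p = 0.08). The HOX, kallikrein and keratin families were chosen after the values had been seen, and none of their members was called without ORC1B14 or without ORC2BP8.

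Signalling targets held single calls, which say little about lists of this size. Of all genes, 1.64% were called higher and 3.91% lower. The call higher was 4.55% of the immediate early list, 10% of the NF-kB list and 7.69% of the YAP and TEAD list. The call lower was 4.55% of the immediate early list and 8.33% of the TGF-beta list. DUSP6, the ERK phosphatase that ERK signalling induces, had 10.13, 10.48, 9.83, 10.03 and 10.62 in replicate 1 and 9.09, 10.22, 9.04, 9.01 and 10.16 in replicate 2, with the steps smallest in ORC1BP32 and WT (difference 0.71, SE 0.12, adjusted p = 0.0217). In the immediate early list it was the 1 call higher among 22 genes, MYC was the 1 call lower, and the median was 0.05. LIF, an interleukin-6 family cytokine, was the 1 call among 10 NF-kB and inflammatory genes: it had 8.54, 8.18, 7.88, 6.43 and 8.37 in replicate 1 and 7.60, 7.83, 7.58, 5.32 and 7.25 in replicate 2 (difference 0.76, SE 0.15, adjusted p = 0.0265), with ORC2BP8 low in both, and the list median was 0.13. AXL, a receptor tyrosine kinase, was the 1 call higher of 13 YAP and TEAD targets (0.57, adjusted p = 0.0319, list median 0.02). SNAI1, a repressor of epithelial genes, was the 1 call of 12 TGF-beta and mesenchymal genes, whose median was 0.05. It had 6.88, 6.78, 6.08, 6.56 and 6.40 in replicate 1 and 7.32, 7.81, 7.11, 7.47 and 7.26 in replicate 2, without overlap (difference -0.85, SE 0.12, adjusted p = 0.0126).

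Interferon-stimulated genes were uneven across the lines. Of 22 tested members 19 were positive and 2 were called higher (9.09%, against 1.64% of all genes), with a median of 0.22. The line medians were 0.27 in ORC1B14, 0.75 in ORC1BP32, 0.29 in ORC2B2, 0.17 in ORC2BP8 and -0.31 in WT, so WT had the opposite sign. SAMD9, an antiviral factor, had 7.66, 9.72, 7.31, 6.96 and 6.95 in replicate 1 and 6.92, 8.24, 6.22, 5.57 and 6.88 in replicate 2 (difference 0.95, SE 0.18, adjusted p = 0.0265); ORC1BP32 was the highest line in both sets and WT barely differed. IRF9, a component of the interferon-activated ISGF3 complex, had 6.36, 6.76, 6.74, 6.44 and 6.35 in replicate 1 and 6.15, 6.15, 5.78, 5.38 and 6.20 in replicate 2, without overlap (difference 0.60, SE 0.15, adjusted p = 0.0466). Without WT 1 of the list was called, and without any other pair none was.

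**Figure D5:**
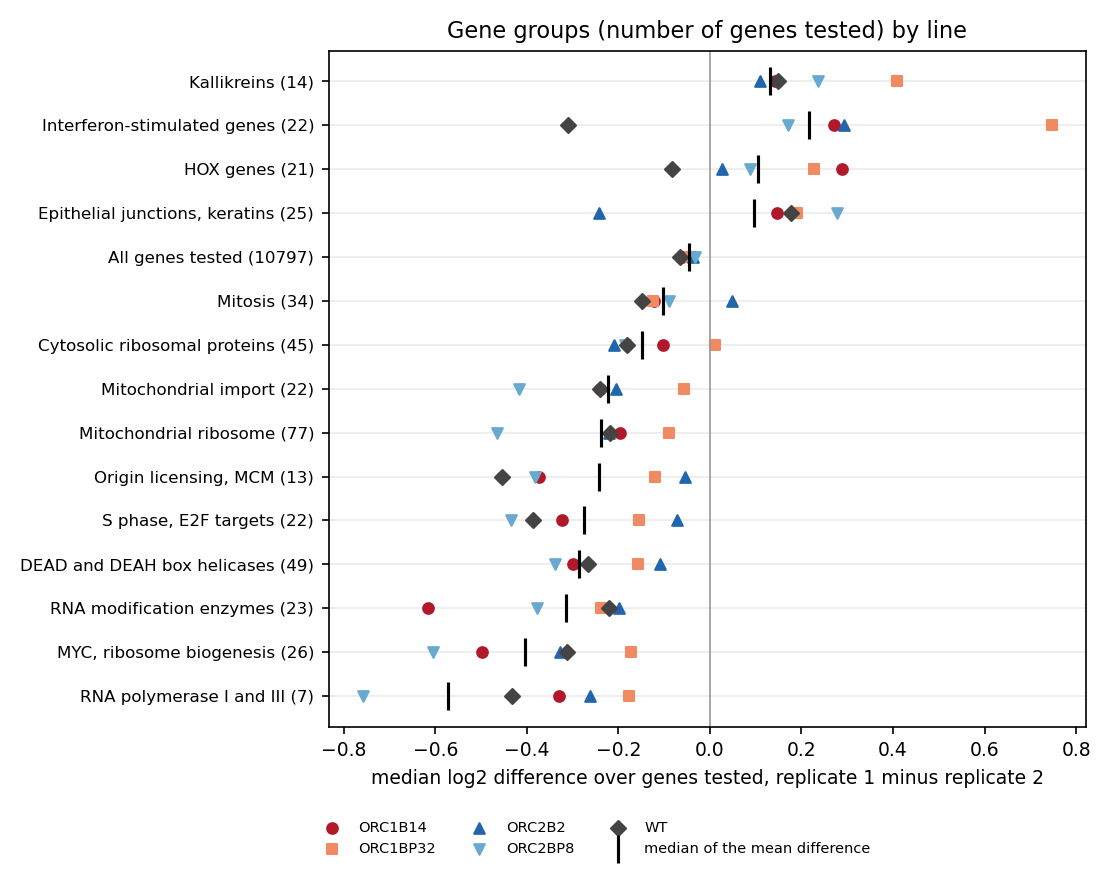
Median difference, replicate 1 minus replicate 2 (x axis, log2), of the genes in 15 groups (rows), with a point for each line's own median and a black tick at the median of the mean difference. Ribosome biogenesis, S phase and licensing genes have all 5 line medians below 0 and the kallikreins have all 5 above 0. The interferon-stimulated genes have WT at -0.31 apart from 4 positive lines.

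Other lists with a call each were the aminoacyl-tRNA synthetases (EPRS1 -0.49, adjusted p = 0.0353; 16 of 17 negative, median -0.14), the small nucleolar RNA host genes and nuclear long RNAs (EPB41L4A-AS1 -0.64, adjusted p = 0.0365; 10 of 11 negative, median -0.34) and the SR and hnRNP proteins (SRSF3 -0.39, adjusted p = 0.0424; 25 of 28 negative, median -0.11). The calls lower were 5.88%, 9.09% and 3.57% of these lists in that order, against 3.91% of all genes. With centring none of these 3 lists held a call. The lysosome and autophagy list had CTSD, a lysosomal protease, higher (0.38, adjusted p = 0.049) with a median of 0.05 over 20 genes. The AU-rich and short-lived list had MYC as its 1 call among 20 genes and a median of 0.02. MYC was 5% of that list called lower, against 3.91% of all genes. CTSD was 5% of the lysosome list called higher, against 1.64%. Of 328 ZNF genes, most of them transcription factors, 15 were called lower (4.57%, near the 3.91% of all genes) and 3 higher (0.915%, against 1.64%) with a median of -0.12; those called lower included ZNF551 (-0.70) and ZNF711 (-0.64).

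Metabolic and stress lists held 0 calls each. The medians were 0.09 over 17 cholesterol genes, -0.05 over 19 fatty acid and lipid droplet genes and 0.02 over 15 glucose and FOXO genes. They were -0.22 over 15 ATF4 and amino acid response genes, -0.02 over 12 endoplasmic reticulum stress genes, 0.04 over 11 heat shock genes and -0.23 over 9 NRF2 targets. ASNS, the asparagine synthetase, had -0.41 (adjusted p = 0.0544), ATF5, a stress-induced transcription factor, -0.51 (adjusted p = 0.079), and HSPA4L, a chaperone, -0.43 (adjusted p = 0.0584). GDF15, a stress-induced cytokine on the p53 list, had 0.63 (adjusted p = 0.247), and the 13 p53 targets had a median of -0.04. The medians were 0.17 over 5 metallothionein and zinc genes, 0.14 over 9 SRF and MRTF targets, 0.17 over 12 WNT and stem cell genes, 0.02 over 16 intestinal secretory and enterocyte genes and -0.14 over 11 circadian genes. The iron list had 1 tested gene, with -0.24, and none of the 54 replication-dependent histone genes listed was analysed here. In all, 538 of 1014 listed genes were tested, 31 were called, and 15 of the 37 lists held a call.

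The replicate difference itself differed between lines of the 2 mutated genes in a small set. With the difference fitted separately for the ORC1 lines, the ORC2 lines and WT, 54 genes (0.5%) were called for ORC1 lines minus ORC2 lines, 6 with a higher and 48 with a lower value, and 46 had opposite signs in both ORC1 lines against both ORC2 lines. Of the 54 genes, 11 were microRNA genes, and 1, the long non-coding RNA N4BP2L2-IT2, was also called for replicate number (0.81, adjusted p = 0.0469). N4BP2L2-IT2 was named after its values were seen. The pairwise correlations of the lines' differences over the 10797 genes, which share arrays only within a line, ran from 0.081 between ORC1BP32 and ORC2B2 to 0.568 between the 2 ORC1 lines. Between the mutant lines and WT, which had 1 pair, 1 gene (0.00926%) was called and 539 had an unadjusted p below 0.05. The lines themselves differed in 71 genes (0.658%) by the F test without replicate number in the fit (3.54% with it), and 1 of these, the ubiquitin ligase gene RNF182 (0.40, adjusted p = 0.0431), was also called for replicate number.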

How the data were processed

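Total RNA of 10 HCT116 samples was measured on Affymetrix whole-transcript arrays, 1 per sample. The deposited table holds 1 value per probe set and array, made by the authors with Affymetrix Expression Console, per the submitters' processing notes; the log2 scale of these deposited values was read from their range (1.45 to 13.7), and their normalization and the build behind them remain not given in the sources used here. No depth exists for arrays, so their number limits the precision.

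Of 53617 probe sets, 16098 had 1 gene symbol in the platform annotation, 0 had several and 37519 are unnamed here. Named probe sets at or above their array's median on at least 2 arrays were kept (11554), and the probe set with the highest mean stood for each of 421 genes with several, which left 10797 genes. Groups and line pairs came from the sample titles, and no 2 arrays held identical values. Replicate 1 minus replicate 2 was fitted with limma 3.58.1 in R 4.3.3 (line as a block, lmFit, eBayes with trend), two-sided, with Benjamini-Hochberg adjustment over all tested genes and a threshold of 0.05. The same values gave a fit with separate replicate differences for ORC1 lines, ORC2 lines and WT, and an F test among lines. The fitting steps were tested on simulated data. Tables and figures were made with Python 3.11.15, numpy 2.4.6 and pandas 2.3.3.

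Genes named are the 15 highest and 15 lowest called genes with 1 sign in all lines, up to 4 called members of each of 37 gene lists (up to 2 as values where none was called), up to 3 in each direction of the 2 fits of differing replicate differences, the cell type markers, and the 3 called genes with the largest smallest-line difference in each direction. The comparison and the lists were chosen with earlier results of these data known. The symbol families, promoter motifs, and the fits on all kept probe sets and without single mutant pairs for the differing replicate differences were chosen after seeing the values, as were genes said to be so. Alternatives were centring, quantile normalization, filters, probe set averaging, array weights, no trend, no line block and leaving out each pair.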

Additional observations from a re-analysis of the deposited data

Results flagged for a closer look

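The 6 genes below were called for a replicate difference that was not the same in the ORC1 and the ORC2 lines. VTRNA1-1 is among them as a description only. It met the filter on low values only through replicate 1 of the ORC1 lines and replicate 2 of the ORC2 lines, so its p is not given as support. Between the ORC1 lines and the ORC2 lines, the vault RNA gene VTRNA1-1, a component of the vault particle, had 0.94 in ORC1B14 and 1.74 in ORC1BP32 against -0.32 in ORC2B2 and -1.38 in ORC2BP8, an ORC1 minus ORC2 value of 2.19. C1orf116 had 1.04 in ORC1B14 and 1.17 in ORC1BP32 against -1.18 in ORC2B2 and -0.90 in ORC2BP8, a value of 2.14. For DMRT1, a regulator of male sex differentiation, the ORC1 lines had 0.25 in ORC1B14 and 0.30 in ORC1BP32 and the ORC2 lines -1.42 in ORC2B2 and -1.44 in ORC2BP8, a value of 1.70. The largest of the opposite kind were microRNA genes. MIR924 had -0.00 in ORC1B14 and -0.73 in ORC1BP32 against 3.08 in ORC2B2 and 2.18 in ORC2BP8, a value of -2.99. MIR31 had -0.93 in ORC1B14 and -1.40 in ORC1BP32 against 2.32 in ORC2B2 and 1.02 in ORC2BP8, a value of -2.84. MIR4295 had -0.57 in ORC1B14 and 0.02 in ORC1BP32 against 1.99 in ORC2B2 and 2.44 in ORC2BP8, a value of -2.49. DMRT1 missed the threshold in the fit without ORC1BP32, which left ORC1B14 as the only ORC1 line.

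GPR15, a G protein-coupled receptor gene, was the 1 gene called between the mutant lines and WT, with a mutant minus WT value of 3.86. It stood at 4.05 in replicate 1 and 7.65 in replicate 2 of WT, and between 3.30 and 3.93 on the other 8 arrays. The value rests on that 1 WT array: WT had 1 pair and so no spread of its own, and the gene met the filter on low values only through the 2 WT arrays, so its p is not given as support.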

How the results depend on the processing

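The called count of 599 genes moved with the scaling and with the pairs. Centred arrays gave 383 calls, 376 of them with 1 sign in all lines and 150 lower in replicate 1; quantile normalization gave 265 lower calls, and without a line block 48 were called, 27 higher and 21 lower. Leaving out each pair gave 18 to 296 calls, with the same extremes for calls of 1 sign, 11 to 103 higher and 7 to 193 lower, while 2981 to 3552 genes had 1 sign in the lines left. On all 29383 kept probe sets, chosen after seeing the data, 499 were called, 296 higher and 203 lower. For ORC1 minus ORC2 lines the count was 34 after quantile normalization, 14 without the trend and 19 to 218 without single pairs; for mutants minus WT it was 2 without a filter, 0 with the strict filter and 8 to 20 without single mutant pairs. The 2 markers that changed sign were THY1, at 0.04 (-0.029 after quantile normalization, and -0.11 to 0.22 with each pair left out), and CDX2, at 0.01 (-0.012 after quantile normalization, and -0.040 to 0.077 with each pair left out). Among named genes, 702 further repeats fell short of the threshold and 5 passed it; 1726 kept direction and call. Of the list and gene type medians, 501 moved by less than the spread of lines and 6 moved more.

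Paired analysis of the lines: with replicate number as a replicate block, the F test among lines called 382 genes (3.54%), 41 of them also called for replicate number, against 71 without it and 6 to 58 with single arrays left out. All 71 were among the 382. Leaving replicate number out of the main F test was a choice of the design. The lines' replicate differences correlated from 0.081 (ORC1BP32 and ORC2B2) to 0.568 (ORC1B14 and ORC1BP32), all positive. The count of 71 therefore comes from a fit that leaves out a difference the lines shared in part. The causes of these moves were not tested.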

Other observations

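Among 656 tested long non-coding RNA genes, 11 were called higher (1.68%, near the 1.64% of all genes) and 9 lower in replicate 1 (1.37%, under the 3.91% of all genes). Their median was 0.01. A few of those called lower are given here with their neighbours, picked from the calls after their values were seen. ELOA-AS1 had 6.07, 5.62, 5.55, 5.42 and 5.59 in replicate 1 of ORC1B14, ORC1BP32, ORC2B2, ORC2BP8 and WT, against 6.68, 6.30, 6.27, 6.20 and 6.45 in replicate 2 (difference -0.73, SE 0.10, adjusted p = 0.0136). These 2 sets did not overlap. RNASEH1-DT, divergent from the ribonuclease gene RNASEH1, had -0.64 (adjusted p = 0.0206), while RNASEH1 itself had -0.37 (adjusted p = 0.0668). RBM26-AS1 had -0.68 (adjusted p = 0.0242) beside 0.13 for RBM26 (adjusted p = 0.423), and SMC5-DT had -0.51 (adjusted p = 0.0365) beside -0.09 for the chromosome maintenance gene SMC5 (adjusted p = 0.645). Among pseudogenes, ANXA2P1 (0.73, adjusted p = 0.0237) and ANXA2P2 (0.32, adjusted p = 0.0372) were higher in replicate 1, beside 0.21 for the annexin gene ANXA2 (adjusted p = 0.383), and probes of such near copies may not separate them.

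By chromosome, the tested genes of chromosome 19 had 29 calls higher and 11 lower in replicate 1 among 833 (3.48% and 1.32%, against 1.64% and 3.91% of all genes), with a median difference of 0.02. Those of chromosome 4 had 2 higher and 35 lower among 383 (0.522% and 9.14%), with a median of -0.13. Both were picked after their values were seen; chromosome 20 had 9 higher and 21 lower among 318 (2.83% and 6.6%), and chromosome 13 had 7 higher and 9 lower among 191 (3.66% and 4.71%). By gene length in 5 equal bins, the median difference was 0.004 in the shortest bin, with 29 calls higher and 50 lower, and -0.10 in the bin before the longest, with 12 higher and 94 lower.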
